A study of Mus musculus with 6 samples.

Results

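The proteasome is the protease complex that degrades ubiquitin-tagged proteins in the cytosol and nucleus. Its genes were taken here as all those named Psma, Psmb, Psmc, Psmd, Psme, Psmf or Psmg and a number, wherever the accession of an array probe matched such a symbol. 47 of the 23462 named genes on the array met this rule, through 71 of 56605 probes. They comprised 4 immunoproteasome genes (Psmb8, Psmb9, Psmb10 and Psme1) and 43 others. Psme2, the fifth immunoproteasome gene, was matched by no probe.

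The 20S core is a barrel of alpha and beta rings, and Psmb5, Psmb6 and Psmb7 carry its constitutive proteolytic sites. In immune cells, and in other cells exposed to interferon gamma, newly built cores take up Psmb8, Psmb9 and Psmb10 in their places, which gives the immunoproteasome and shifts the peptides made towards those that MHC class I molecules bind. Psme1 and Psme2 encode PA28 alpha and beta, a cap induced by interferon. The 19S particle, with its ATPase base and its lid, recognises, unfolds and deubiquitinates substrates.

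A pair of genotypes were compared, each with 3 samples on 1-colour Agilent arrays. KC samples carried Ptf1aCre, a Cre active in pancreatic progenitors and acinar cells, with a further Cre-activated allele that both genotypes share and that is not named here. KCS samples carried these alleles and Setdb1flox/flox, floxed copies of a histone methyltransferase gene. All were C57BL/6, and RNA came from cells labelled as acinar. The labels used here give no treatment, age or time point. Whether the samples came from separate animals is not stated, so p-values measure the spread between these samples, which may be technical. The first slide held 1 sample of each genotype and the second held 2 of each.

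Levels are log2 signals minus the 75th percentile of their array. A gene was called higher or lower in KCS where limma's p-value, Benjamini-Hochberg adjusted over all rows tested, was under 0.05. By this rule 25.9% of the 27102 rows were called higher and 34.4% lower, so a call was common. With arrays scaled to the spike-ins instead, 23624 rows were higher and 788 lower, and with median centring 9151 and 7043. On 68.2% of rows the arrays of the 2 genotypes did not overlap. The 75th percentile itself ranged from 61.2 to 68.6 scanner units in KC and from 347 to 423 in KCS, and the median log2 spike-in signal was 9.72 to 10.1 and 9.46 to 9.71. The single Setdb1 probe gave -0.76 ± 0.39 (SD, n = 3) in KC and -0.43 ± 0.14 in KCS (limma adjusted p = 0.27). The labels do not say which exons are floxed, so this probe does not check the genotypes.

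The labelled cell type was clear in KC and far weaker in KCS. All 9 acinar markers were lower in KCS, and their summed signal, in multiples of the array's 75th percentile, was 16215 to 18474 in KC against 3.47, 15.0 and 1164 in KCS1, KCS2 and KCS3. Pnlip and Ptf1a, acinar-defining genes, were well above background on 1 KCS array each. All 3 pan-leukocyte and all 7 macrophage markers were higher in KCS, with macrophage sums of 19.5 to 30.4 in KC and 247 to 370 in KCS. In bulk RNA, a different number of cells of a type and a different amount of RNA per cell cannot be told apart, for the proteasome genes as for these markers.

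The start regions of the 4 immunoproteasome genes are shown because 3 of these genes rose and 1 fell, and because the start of Psmb9 lies 225 bases from that of Tap1, the peptide transporter gene on the opposite strand. Each run is the 200 bases before the annotated start in RefSeq (GRCm38.p6), 5′ to 3′ on the gene's strand, and overlaps no annotated gene. Capitals mark a gamma-activated site (TTCNNNGAA) in Psmb8 and a CCAAT box, read on the other strand, in Psmb9. The windows are chr17:34197995-34198194 (plus strand) for Psmb8, chr17:34187331-34187530 (minus) for Psmb9, chr8:105938393-105938592 (minus) for Psmb10 and chr14:55578294-55578493 (plus) for Psme1.
Psmb8: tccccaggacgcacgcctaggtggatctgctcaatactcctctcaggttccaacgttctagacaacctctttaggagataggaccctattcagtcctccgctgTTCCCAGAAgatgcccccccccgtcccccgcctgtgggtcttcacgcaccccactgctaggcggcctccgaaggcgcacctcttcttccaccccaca
Psmb9: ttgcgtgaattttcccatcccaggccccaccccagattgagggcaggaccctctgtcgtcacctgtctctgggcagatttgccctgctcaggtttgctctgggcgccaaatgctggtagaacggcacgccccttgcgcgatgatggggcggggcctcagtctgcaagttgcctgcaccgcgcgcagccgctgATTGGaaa
Psmb10: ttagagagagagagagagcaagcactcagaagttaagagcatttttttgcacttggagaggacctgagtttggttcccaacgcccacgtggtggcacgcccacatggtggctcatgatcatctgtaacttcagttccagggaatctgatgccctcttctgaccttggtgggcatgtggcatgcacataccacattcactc
Psme1: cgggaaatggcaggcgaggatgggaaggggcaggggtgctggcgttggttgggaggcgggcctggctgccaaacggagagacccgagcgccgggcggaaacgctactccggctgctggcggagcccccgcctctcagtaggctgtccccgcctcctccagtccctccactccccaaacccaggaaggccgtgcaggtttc

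Both strands of the 250 bases before and 50 after each start were searched for 4 motifs. The gamma-activated site was present in 9.55% of 27025 genes and began at position -97 from the Psmb8 start. Of the 35 other proteasome genes with a sequence, 2 held it (Psmd2 and Psmg1). The interferon response element core (GAAANNGAAA) was present in 3.99% of genes. It was found in Psme1, from base 10 after the start, and in 4 of the 35 others (Psmb3, Psmd4, Psmd9 and Psmg4). The antioxidant response element core (TGACNNNGC), in 13.99% of genes, was found in none of the 4 immunoproteasome genes and in 6 of the 35 others, Psmb5 and Psmb6 among them. The CCAAT box, in 41.1% of genes, was found in 1 of 4 and 13 of 35. These matches describe letters in a window, not binding.

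Of the 4 immunoproteasome genes, 3 were higher in KCS and 1 was lower, where 25.9% and 34.4% of all rows were. Psmb8, the counterpart of Psmb5, rose 11.4-fold. Psmb9, the counterpart of Psmb6, rose 4.93-fold and Psme1 rose 1.95-fold. Psmb10, the counterpart of Psmb7, was 6.35-fold lower in KCS.

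The Psmb8 level was -0.58, -0.09 and -1.01 in KC1, KC2 and KC3, and 3.26, 3.0 and 2.61 in KCS1, KCS2 and KCS3. The lowest KCS array stood 2.70 above the highest KC array on the log2 scale. The difference was 3.52 ± 0.30 (SE; limma adjusted p = 0.000231), and it was 3.84 on the first slide and 3.35 on the second.

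Psmb9 read 0.23, 0.57 and -0.04 in KC and 2.87, 2.48 and 2.31 in KCS. The groups were 1.74 apart at their nearest arrays, and within KCS the arrays fell in the same order as for Psmb8. Its log2 fold change was 2.30 ± 0.24 (limma adjusted p = 0.00046).

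Psme1 read 3.76, 3.63 and 3.19 in KC and 4.54, 4.47 and 4.46 in KCS. The KCS arrays were within 0.09 of each other, and all lay above the KC arrays. The log2 fold change was 0.96 ± 0.20 (limma adjusted p = 0.00686). In place of Psme2, the array held 2 probes for Psme2b, a near-identical copy whose probes may also read Psme2, so the source of their signal is uncertain. Both were higher in KCS, by 1.67 and 1.79 (limma adjusted p = 0.000557 for the brighter).

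Psmb10 ran the other way. It read 8.20, 7.76 and 7.81 in KC and 5.42, 5.10 and 5.26 in KCS. No KCS array came within 2.34 of a KC array. Its log2 fold change was -2.67 ± 0.20 (limma adjusted p = 0.000166), with -2.79 on the first slide and -2.61 on the second. Under spike-in scaling, where the median of all rows was 2.68, it was 0.21 and was not called. In RefSeq gene order Psmb10 stands between Ctrl, a chymotrypsin-like acinar protease gene, and Lcat, and these neighbours were lower too, at log2 fold changes of -13.48 and -4.50 (limma adjusted p = 0.000401 and 7.14e-05). Neighbours did not always share a direction: Emc9, next to Psme1, was lower at -1.97 (limma adjusted p = 0.000287), while Psme1 was higher.

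**Figure D1:**
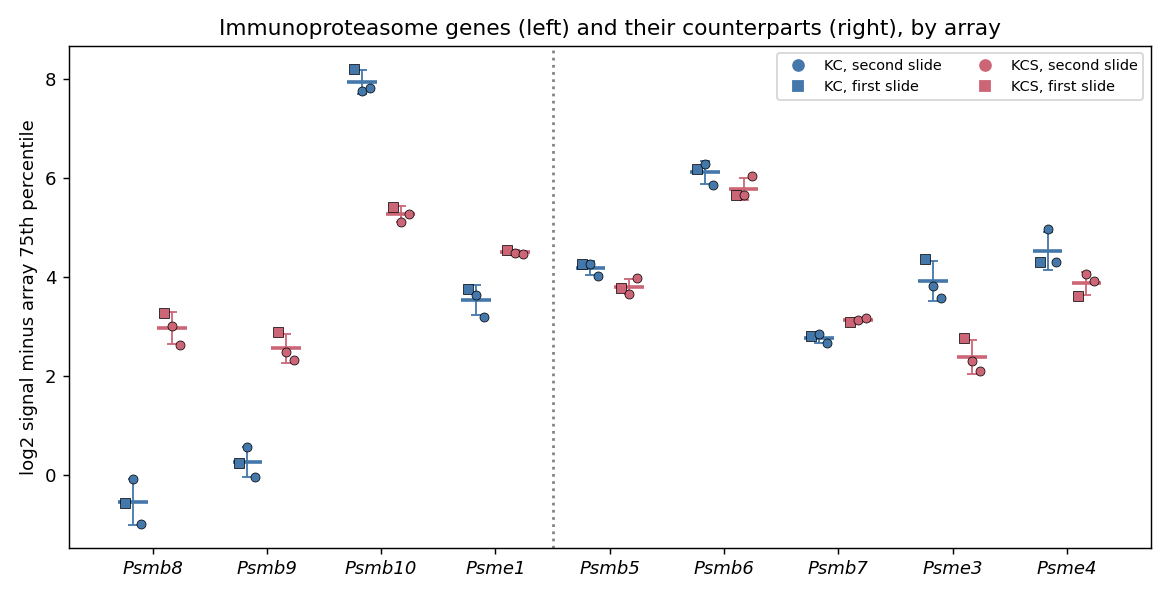
Log2 signal minus the array's 75th percentile (vertical axis) of 4 immunoproteasome genes (left of the dotted line) and 5 counterparts or other activators (right). Points are arrays, squares the first slide and circles the second, bars the mean and SD of 3 samples. Psmb8, Psmb9 and Psme1 are higher and Psmb10 lower on every KCS array, while Psmb5, Psmb6 and Psmb7 shift by less than 0.4.

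The constitutive catalytic subunits differed less, and none was called. Psmb5, which carries the chymotrypsin-like site, read 4.25, 4.26 and 4.01 in KC and 3.77, 3.66 and 3.97 in KCS, a difference of -0.38 ± 0.18 (limma adjusted p = 0.113). Psmb6, with the caspase-like site, read 6.18, 6.29 and 5.85 against 5.65, 5.65 and 6.04, and its groups overlapped (-0.33 ± 0.21, limma adjusted p = 0.219). Psmb7, with the trypsin-like site, read 2.81, 2.84 and 2.65 against 3.08, 3.13 and 3.17, without overlap (0.36 ± 0.16, limma adjusted p = 0.0909). Psmb7 passed the threshold under median centring (0.72, adjusted p = 0.0129), spike-in scaling, normexp and a trended variance, so its call depends on the processing.

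The difference between an immunoproteasome gene and its counterpart on the same array cancels any factor common to an array. Probes differ in affinity, so the ratio itself is not a subunit ratio, and the shift between genotypes is what can be compared. Psmb8 minus Psmb5 was -4.83, -4.35 and -5.02 in KC and -0.51, -0.66 and -1.36 in KCS, a shift of 3.89 ± 0.33 (SE, n = 3 in each group), or 14.9-fold. Psmb9 minus Psmb6 was -5.95, -5.72 and -5.89 in KC and -2.78, -3.17 and -3.73 in KCS, a shift of 2.63 ± 0.29, or 6.18-fold. Psmb10 minus Psmb7 was 5.40, 4.92 and 5.16 in KC and 2.33, 1.96 and 2.10 in KCS, a shift of -3.03 ± 0.17, or 8.17-fold the other way.

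In each of these 3 pairs the KC and KCS arrays were fully separated, and the pairs did not shift together. Separation was common, since the arrays did not overlap on 68.2% of all single rows. The exact two-sided permutation p was 0.1 for each pair, also after adjustment over the 3, which is the smallest that 3 against 3 samples allow. Full separation fixes the sign of a shift on both slides, so the slides give only its size. For Psmb8 over Psmb5 it was 4.32 on the first slide and 3.68 on the second.

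**Figure D2:**
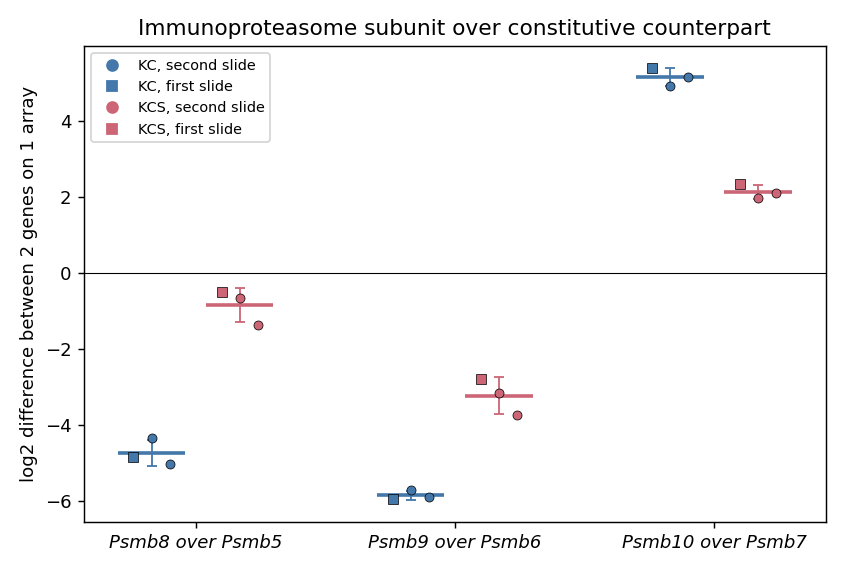
Log2 difference between 2 genes on 1 array (vertical axis) for 3 pairs of an immunoproteasome subunit and its constitutive counterpart. Points are arrays, squares the first slide and circles the second, bars the mean and SD of 3 samples. The first 2 pairs move up in KCS by 3.89 and 2.63, and Psmb10 over Psmb7 moves down by 3.03.

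Among the 42 other proteasome genes that could be tested, 9 were higher (21.4%) and 5 lower (11.9%) in KCS, both shares below those of all rows. The 9 include Psma8, which passed the filter on dim probes only through KCS. Their median log2 fold change was 0.08, against -0.19 over all rows, and 27 of the 42 differed by less than 0.5. Arrays of the 2 genotypes did not overlap for 26 of them (61.9%), against 68.2% of all rows. The 14 called genes had the same sign on both slides, which follows from their arrays not overlapping and adds no support. These counts moved with the scaling of the arrays and with the background correction: 16 were higher and 4 lower after quantile normalization, 19 and 3 after median centring, 30 and 2 after normexp background correction, and 42 and 0 with scaling to spike-ins. The median of all rows moved as well, from -0.19 to -0.01, 0.16, -0.61 and 2.68. Set against that median, the other proteasome genes stood 0.27 above it under the 75th percentile, which median centring and spike-in scaling cannot alter because each shifts all genes of an array by 1 constant. They stood 0.38 above it after quantile normalization and 1.30 above it after normexp.

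**Figure D3:**
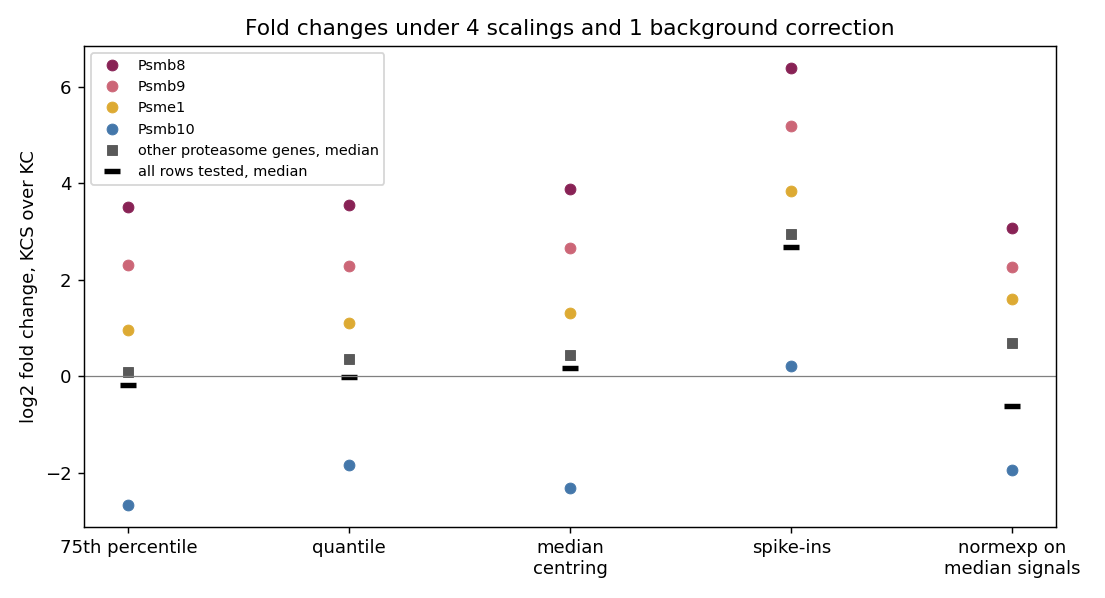
Log2 fold change of KCS over KC (vertical axis) under 4 scalings of the arrays and 1 background correction (normexp), for the 4 immunoproteasome genes (circles), the median of the other proteasome genes (squares) and the median of all rows tested (bars). Psmb8, Psmb9 and Psme1 stand above the median of all rows and Psmb10 below it under each of the 5. Under spike-in scaling Psmb10 is at 0.21 and all rows at 2.68. Median centring and spike-in scaling each shift all genes of an array by 1 constant, so they cannot alter these positions. Only quantile normalization and normexp could have changed them.

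In the 20S core, 3 of 14 subunits other than the immunoproteasome ones were called, all higher. That share, 21.4%, was below the 25.9% of all rows called higher. Psma1 and Psma5 belong to the alpha ring, which forms the gate of the barrel. Psma1 read 3.11, 3.35 and 3.11 in KC and 4.33, 4.50 and 4.44 in KCS (1.23 ± 0.17, limma adjusted p = 0.00117). Psma5 read 3.77, 3.87 and 3.81 against 4.48, 4.63 and 4.64 (0.77 ± 0.16, limma adjusted p = 0.0063). All KCS arrays were above all KC arrays for both genes.

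The other 5 alpha subunits ran from -0.15 for Psma7 to 0.42 for Psma3, and none was called on its brightest probe. The second Psma3 probe gave 0.54 (limma adjusted p = 0.0278). Of the dimmer Psma4 probes, 1 gave 0.63 (limma adjusted p = 0.0496), and those at 0.28 and 0.01 were not called. Psma7 was higher instead after normexp (0.55) and with spike-in scaling (2.72). In the beta ring, Psmb2, a subunit without an active site, read 0.06, 0.34 and 0.06 in KC and 1.15, 1.08 and 0.96 in KCS (0.91 ± 0.17, limma adjusted p = 0.00451), and its second probe gave 0.99. Psmb1, Psmb3 and Psmb4 gave 0.38, 0.08 and 0.21 and were not called, although the second Psmb4 probe gave 0.74 (limma adjusted p = 0.0109).

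The 6 ATPases of the 19S base, which unfold substrates and thread them into the core, stayed between -0.33 for Psmc3 and 0.32 for Psmc4, and none was called. Their standard errors were 0.15 to 0.18. Probes of 1 gene differed: the second Psmc4 probe gave 0.67 (limma adjusted p = 0.0239), and the other Psmc3 probes gave 0.28 and 0.14. Psmc3 was called higher after quantile normalization (0.49) and normexp (0.36), and lower with a trended variance.

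Of the 3 base subunits without ATPase activity, 2 were higher and 1 was not called, where 25.9% of all rows were higher. Psmd1, a large scaffold subunit, read 3.30, 3.46 and 2.82 in KC and 4.68, 4.74 and 4.44 in KCS. All 3 of its probes rose, by 1.32 to 1.60, and the brightest gave 1.43 ± 0.23 (limma adjusted p = 0.00207). Psmd2, the companion scaffold, gave 0.64 ± 0.16 (limma adjusted p = 0.0136). Psmd4, a ubiquitin receptor, gave 0.07 ± 0.17 and was not called.

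Of the 8 lid genes, 1 was higher (12.5%), 2 were lower (25.0%) and 5 were not called. Both shares were below those of all rows, 25.9% and 34.4%. Psmd14, the deubiquitinase that removes ubiquitin chains as substrates enter, read 2.24, 2.36 and 2.15 in KC and 3.71, 3.92 and 3.71 in KCS. Both of its probes rose, by 1.53 ± 0.17 (limma adjusted p = 0.000526) and 1.91. Psmd6, a structural lid subunit, read 5.45, 5.82 and 5.46 in KC and 4.39, 4.46 and 4.56 in KCS. All 3 of its probes were lower, by -0.77 to -1.11 (brightest: limma adjusted p = 0.0025).

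Psmd3, another structural subunit, was called lower on its brighter probe, which read 6.04, 6.18 and 6.26 in KC and 5.23, 5.26 and 5.40 in KCS (-0.87 ± 0.17, limma adjusted p = 0.00453). Its second, dimmer probe gave 0.19 (limma adjusted p = 0.485), so the array does not settle the direction for this gene. The call was lost when probes were averaged (-0.34, adjusted p = 0.155), and under quantile normalization (-0.36) and normexp (-0.16). Psmd7, Psmd8, Psmd11, Psmd12 and Psmd13 ran from -0.36 to 0.37. The Psmd6 and Psmd3 differences changed sign under spike-in scaling, to 1.77 and 2.01.

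**Figure D4:**
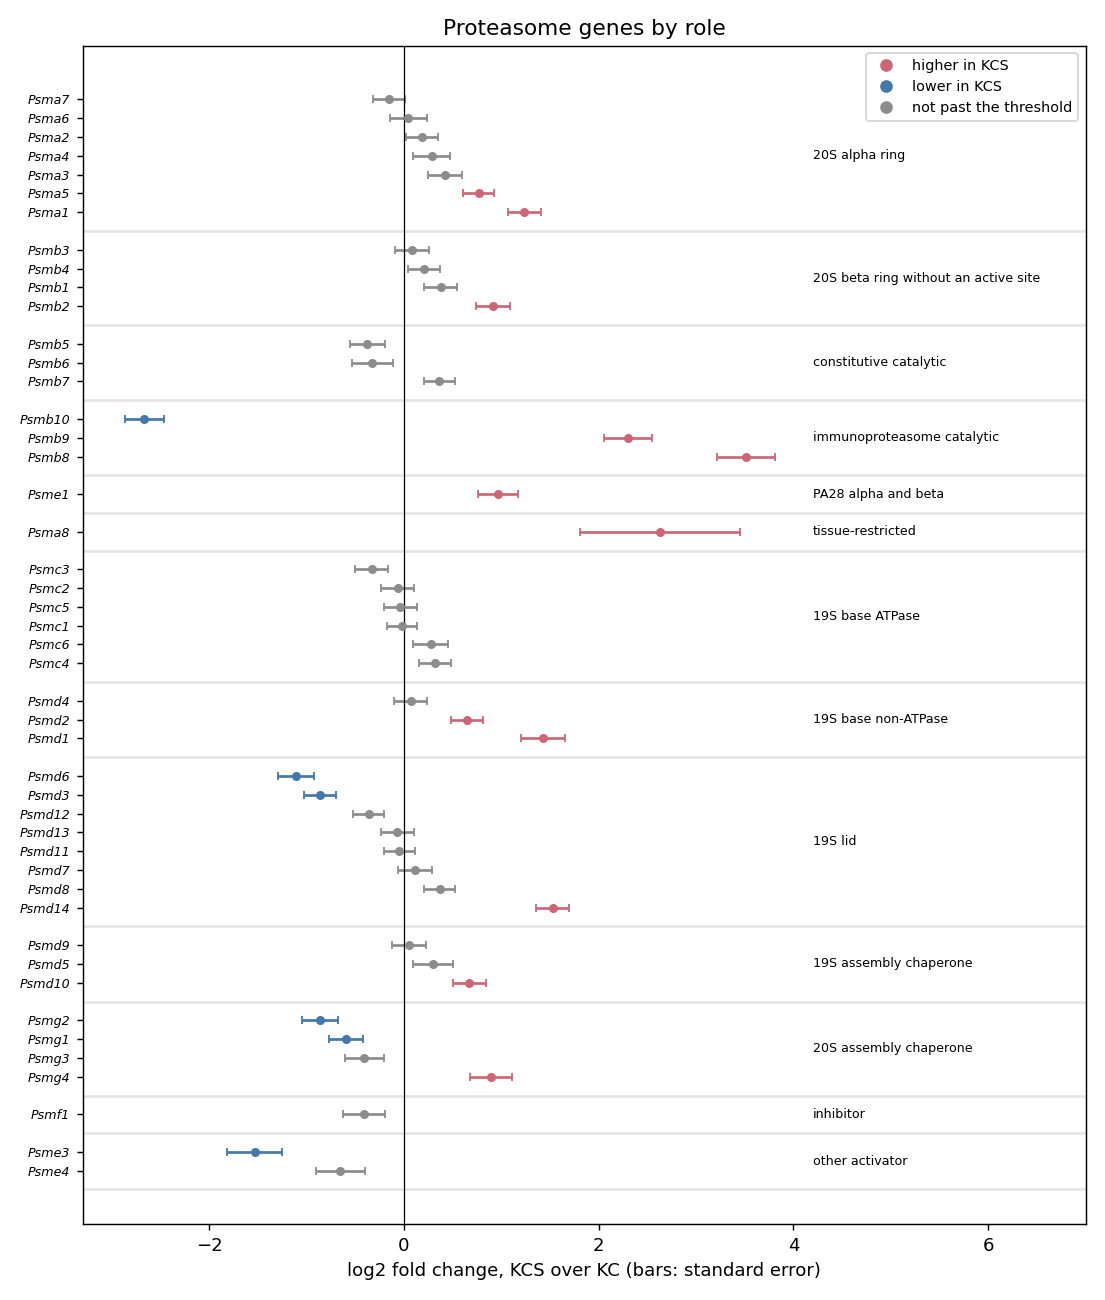
Log2 fold change of KCS over KC (horizontal axis) with its standard error for the 46 proteasome genes tested, grouped by role. Red marks genes called higher, blue genes called lower and grey the rest; the immunoproteasome catalytic genes run from -2.67 to 3.52, and the 6 ATPases lie within 0.34 of 0.

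Assembly factors were mixed. Of the 4 chaperones that build the 20S core, Psmg4 read -0.47, -0.26 and 0.08 in KC and 0.89, 0.64 and 0.51 in KCS (0.90 ± 0.22, limma adjusted p = 0.0114). Psmg2 read 2.65, 2.28 and 2.56 in KC and 1.67, 1.49 and 1.75 in KCS (-0.86 ± 0.19, limma adjusted p = 0.00751). Psmg1, which pairs with Psmg2 in the alpha-ring chaperone, was lower on both probes (-0.59 ± 0.18, limma adjusted p = 0.0254, and -0.72). Psmg3, the partner of Psmg4, gave -0.41 ± 0.20 and was not called.

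The arrays of KC and KCS did not overlap for any of these 4 chaperones, but the same held for 68.2% of all rows. For Psmg3 the groups were only 0.007 apart on the log2 scale. Both members of the Psmg1 and Psmg2 pair were called lower, whereas of the other pair Psmg4 alone was called. Of the 3 chaperones of the 19S base, Psmd10 rose by 0.67 ± 0.17 (limma adjusted p = 0.0138), while Psmd5 and Psmd9 gave 0.30 and 0.05. Psmg4 and Psmd10 were not called on the second slide alone (adjusted p = 0.0752 and 0.057), and Psmg2 was not called under median centring (-0.51, adjusted p = 0.0635) or normexp.

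Of the 2 activators outside the interferon-induced cap, 1 was called lower in KCS and the other was not called. Psme3, the nuclear activator PA28 gamma, read 4.35, 3.81 and 3.57 in KC and 2.75, 2.29 and 2.09 in KCS. The groups were 0.82 apart, and the log2 fold change was -1.53 ± 0.28 (limma adjusted p = 0.00391), opposite in sign to Psme1. Under spike-in scaling Psme3 was called higher instead, at 1.34 (limma adjusted p = 0.0114). Psme4, which encodes the activator PA200, read 4.29, 4.96 and 4.29 against 3.61, 4.06 and 3.92 (-0.65 ± 0.26, limma adjusted p = 0.0639), and it passed the threshold with the slide as a block (adjusted p = 0.0473). Psmf1, the inhibitor PI31, gave -0.41 ± 0.22 on its brighter probe and 0.23 on the other, and neither was called.

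Both subunits restricted to particular tissues were dim. A probe is said to clear background where the scanner software marked it as well above it. Psma8, of the testis core particle, read -3.46, -1.75 and -5.25 in KC and -0.94, -0.50 and -1.13 in KCS. It cleared background on 1 KC array and on all 3 KCS arrays, so it passed the filter only through KCS, where it is high, and its KC level is mostly a background value. The fitted log2 fold change of 2.63 ± 0.82 (limma adjusted p = 0.0308) is given as a description, and it was not called when KC replicate 1 or any 1 KCS replicate was left out (adjusted p = 0.0551 to 0.0886), nor under quantile normalization (adjusted p = 0.0521), normexp or on the second slide alone. Its second probe did not clear background in KC, and the bound on its fold was under 1, so no fold is given. Psmb11, of the thymus, cleared background on none of the 6 arrays and was not tested.

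Lists of genes that act around the proteasome were examined as well. Of 11 tested interferon signalling genes, 10 were higher in KCS and none lower, against 25.9% and 34.4% of all rows. Irf1, which drives immunoproteasome genes, rose by 1.81 (limma adjusted p = 0.00105), and Nlrc5, the MHC class I transactivator, was fitted at 3.59 (limma adjusted p = 0.000271). Nlrc5 cleared background on 1 KC array and on all 3 KCS arrays, so it passed the filter only through KCS and the size of its difference is uncertain. Irf8, a factor of myeloid and B cells, rose by 4.67 (limma adjusted p = 8.19e-05). Irf2 gave 0.58 and was not called. Ifng itself cleared background on no KC array and on 2 KCS arrays, and was not tested.

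Of 8 peptide loading genes, 6 were higher and none lower, against 25.9% and 34.4% of all rows. Under normexp 7 were higher and 1 lower. Erap1, among the 6, cleared background on 1 KC array and on all 3 KCS arrays, so it passed the filter only through KCS. Tap1, which shares its start region with Psmb9, rose by 2.11 (limma adjusted p = 0.000442). Tap2, which follows Psmb8 in the gene order, rose by 1.08 (limma adjusted p = 0.0201). B2m, the light chain of MHC class I, rose by 2.97 (limma adjusted p = 0.000257). Calr and Canx, general folding chaperones of the endoplasmic reticulum, gave 0.48 and -0.23 and were not called.

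The transcriptional regulators of proteasome genes did not move together. Nfe2l1, the factor that raises proteasome genes when proteasome activity falls, gave 0.22 and was not called. All 4 regulators were higher under spike-in scaling, and under normexp 3 were higher and 1 lower. Ngly1, which processes the Nfe2l1 protein, fell by 1.16 on the log2 scale (limma adjusted p = 0.00285), and Ddi2, the protease that cuts that protein, gave 0.42 and was not called. Nfe2l2, the oxidative stress factor, rose by 2.0 (limma adjusted p = 0.000377).

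Of 11 ubiquitin genes and shuttle factors, none was called higher and 5 (45.5%) were called lower, against 25.9% and 34.4% of all rows. The counts were 3 higher and 3 lower under quantile normalization, 5 and 4 under normexp, and 11 and 0 under spike-in scaling. Rps27a, which encodes ubiquitin fused to a ribosomal protein, fell by 1.58 on the log2 scale (limma adjusted p = 0.000543), while the polyubiquitin gene Ubb gave -0.44 and was not called. The shuttle genes Rad23b and Ubqln4 were lower, at log2 fold changes of -0.73 and -0.99, with limma adjusted p = 0.00956 and 0.00377. Of 10 partners and assembly factors, 5 were higher and 3 lower, against 10 and 0 under spike-in scaling. Of the deubiquitinases that dock on the 19S particle, Usp14 rose by 1.09 (limma adjusted p = 0.00174) and Uchl5 fell by 1.74 (limma adjusted p = 0.000384). Pomp, which matures the core, rose by 0.57 (limma adjusted p = 0.0267), and Zfand5, a proteasome activator, by 1.62 (limma adjusted p = 0.000477).

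Several marker lists of other cells were higher in KCS, as Psmb8, Psmb9 and Psme1 were, while Psmb10 and the islet markers were lower. Marker counts are to be set against the 25.9% of all rows called higher and the 34.4% called lower. Pan-leukocyte sums were 3.32 to 5.33 in KC and 41.1 to 67.8 in KCS, and dendritic cell sums 0.29 to 0.38 and 5.0 to 42.4, with Xcr1 below the background limit throughout. Nearly all of the dendritic cell sum in KCS is Itgax, which macrophages also express. Itgax and Flt3 were called higher, both passing the filter only through KCS, and Zbtb46 gave 0.03 and was not called. Of the T and NK cell markers, 3 were higher (Cd3g, Nkg7 and Klrb1c) and 2 lower (Cd3e and Cd3d), with sums of 6.35 to 12.5 in KC and 1.69 to 5.45 in KCS. Cd3g, Nkg7 and Klrb1c cleared background on 0, 2 and 0 KC arrays, so all 3 passed the filter only with their KCS arrays. The counts were 3 higher and 0 lower under spike-in scaling and 0 and 3 under normexp. Cd8a cleared background on no KC array and on 1 KCS array. B cell sums were 0.19 to 0.29 and 0.64 to 2.38, with 1 of 4 markers called higher (Cd79b, which cleared background on no KC array). Under normexp 1 dendritic cell marker was higher and 2 lower, and 0 B cell markers were higher and 2 lower. Fibroblast sums were 194 to 256 and 1018 to 1267, with all 6 markers higher. Endothelial sums were 6.04 to 7.11 and 9.96 to 16.6, with 3 of 4 higher. Ductal sums were 9.52 to 16.1 and 45.8 to 156, with 2 of 5 higher, and islet sums 838 to 954 and 111 to 208, with all 4 lower, though none of the 4 was called under spike-in scaling.

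Within KCS, Psmb8, Psmb9 and Psme1 were highest in KCS1 and lowest in KCS3, the order of the pan-leukocyte, macrophage and dendritic cell sums over these 3 arrays. KCS1 was the only KCS array on the first slide, so its place in this order cannot be told apart from a slide difference. Psmb2, Psmg4 and Psme3, the last of which was lower in KCS, fell in the same order, the Psme1 arrays differed by only 0.09, and the T and NK cell, B cell, fibroblast and endothelial sums had other orders. Psmb10 spanned 0.32 on the log2 scale within KCS, where the acinar sum differed 335-fold between the highest and the lowest array, and its level was highest in KCS1, the array with the lowest acinar sum. The part of these cell types in the proteasome differences was not tested.

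**Figure D5:**
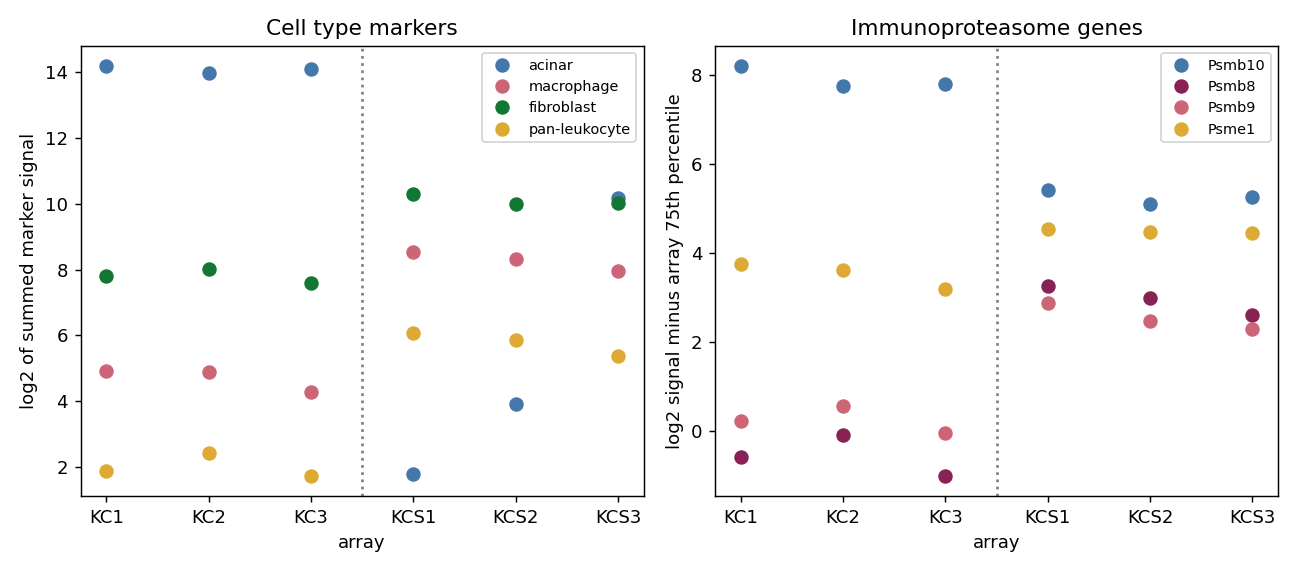
Log2 of the summed signal of 4 marker lists (left) and log2 signal minus the array's 75th percentile of the 4 immunoproteasome genes (right), by array, with KC left and KCS right of the dotted line. The acinar sum is lower on each KCS array and differs among them by 335-fold, while Psmb10 stays within 0.32 across the KCS arrays.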

How the data were processed

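Per the labels' protocols, total RNA was column-purified, put through whole-transcriptome amplification and Cy3-labelled. It was hybridised to 6 one-colour Agilent arrays. The authors deposited scanner files whose intensity columns come from Agilent Feature Extraction 12.0.3.1, per the file headers, and a log2 value table. Depth is not defined for arrays, and their number (3 against 3) limits the precision.

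From the deposited intensities, log2 processed signals were averaged per probe without outlier spots and centred on each array's 75th percentile over non-control probes. Kept were probes that the scanner software marked well above background on 3 or more arrays. The probe with the highest mean stood for a gene. Probes were named by matching accessions to RefSeq (GRCm38.p6), which named 33767 of 56605, and the files' own build is mm9. limma 3.58.1 in R 4.3.3 was fitted over all 27102 rows and tested on simulated data. Pairs were tested with scipy 1.17.1.

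Named were the immunoproteasome genes, Psmb5, Psmb6, Psmb7, Psme3 and Psme4, the highest and lowest member of each other role, members called against most of their role, and members not well above background in a whole group. Psmd2, Psmg1 and the remaining members were added after their values were seen. The members and lists were chosen with earlier results of these data known. Alternatives covered scaling, background, filter, probe choice, variance, slide, replicate and threshold. Some genes of the lists are counted but not reported here by name.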

Additional observations from a re-analysis of the deposited data

How the results depend on the processing

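The immunoproteasome counts (3 higher, 1 lower) held under all alternatives run except spike-in scaling, where Psmb10 gave 0.21, was not called, and 0 were lower. Their median, 1.63, was 1.99 under median centring, 4.51 under spike-in scaling and 1.93 under normexp, a background correction chosen after seeing the data because the planned one, on mean signals, was not run. Of the other proteasome genes, 16, 19, 42 and 30 were higher under quantile normalization, median centring, spike-in scaling and normexp, and 3, 0 and 2 were lower under the last 3. Their median was 0.36, 0.43, 2.95 and 0.70 under these 4, and 0.19 both with averaged probes and with every probe on its own. With a trended, robust variance 8 were lower. On the second slide alone 5 were higher, and 5 were at an adjusted p below 0.01. The pair shifts under normexp were 2.77 (Psmb8 over Psmb5) and 1.90 (Psmb9 over Psmb6), and under quantile normalization 1.98 (Psmb9 over Psmb6) and -2.21 (Psmb10 over Psmb7). Without the filter on dim probes 31885 rows were called over all genes, against 16345, with more rows tested.

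Spike-in scaling turned the sign of Psma7 (2.72), Psmb5 (2.5), Psmb6 (2.55), Psmb10 (0.21), Psmc3 (2.54), Psmd3 (2.01), Psmd6 (1.77), Psmg2 (2.02), Psmf1 (2.46), Psme3 (1.34) and Psme4 (2.22). Quantile normalization turned Psmc3 (0.49), and normexp turned Psma7 (0.55) and Psmc3 (0.36). Spike-in scaling moves the median of all rows to 2.68, and beyond this shift the cause was not tested.

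Of 512 values of 27 named genes under these alternatives, 464 kept their direction and side of the threshold, 14 lost the call, 20 gained one and 14 turned. Psma1, Psma5, Psmb2, Psmb8, Psmb9, Psmd1, Psmd14 and Psme1 kept theirs in all.

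Leaving out each replicate in turn gave 8 to 9 other genes higher and 4 to 5 lower, medians of 1.48 to 1.74 and 0.05 to 0.17, pair shifts of 3.73 to 4.15, 2.40 to 2.88 and -3.15 to -2.91, and 13400 to 15283 rows called over all genes. Same-numbered arrays had deviations from their group means correlated at 0.33, 0.04 and 0.14, and only replicate 1 correlated best with its own number. Replicate 1 is also the pair of samples on the first slide. Whether replicate numbers pair the samples is therefore not settled. With the replicate number as a block 9 other genes were higher and 5 lower, 16452 rows were called over all genes, and Psme4 passed the threshold (adjusted p = 0.0418). The deposited value table gave the same counts for both classes. Dim probes limit Psma8 and Psmb11.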

Other observations

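Genes whose symbols run on after the number were kept apart from the proteasome genes. Psmc3ip, a meiotic recombination factor and no proteasome subunit, was higher in KCS by 1.24 (limma adjusted p = 0.00321). Psme3ip1 gave 0.22 and was not called. Of 19 proteasome genes with several tested probes, the call differed between probes for 6 (Psma3, Psma4, Psmb4, Psmc4, Psmd13 and Psmd3) and the sign for 4 (Psmc3, Psmd13, Psmd3 and Psmf1). None had probes called in opposite directions.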
